A study of Sus scrofa domesticus with 4 samples.

Results

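The genes described here encode proteins of the stromal matrix: the matricellular proteins TNC, THBS1 and SPARC, the adhesive glycoprotein FN1, the small leucine-rich proteoglycans DCN, LUM and ASPN, the secreted Wnt inhibitor SFRP4 and the fibrillar collagen chains COL1A2 and COL3A1. They were followed in explants of pig myometrium, the smooth muscle wall of the uterus, by taking every array probe whose RefSeq accession belongs to 1 of these 10 genes. That gave 31 of the 43603 probes, for 8 of the 10 genes. LUM had 9 probes, SPARC 7, THBS1 6, DCN 4, TNC 2, and ASPN, SFRP4 and COL1A2 had 1 each. No probe was matched to FN1 or COL3A1 by accession, so neither has a value here. All 31 probes were bright enough to be tested.

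The study asked how adiponectin, a hormone made mainly by fat cells, affects gene expression in the myometrium around implantation. The donors were 4 mature Large White x Polish Landrace gilts, 7 to 8 months old and 120 to 130 kg, on days 15 to 16 of gestation. Control and treated slices alike spent 2 h in M199 medium and then 24 h in culture, the treated ones with adiponectin at 10 µg/ml and the controls without treatment. Each of the 4 Agilent 2-colour arrays carried 1 treated and 1 control RNA. The labels do not say whether the RNAs of an array came from 1 gilt or how the duplicate cultures were combined. The errors below thus rest on the spread between 4 arrays, part of which may be technical. SE and intervals are moderated by limma, which draws each probe's variance towards a value shared by all tested probes. They are therefore not the spread of that probe alone. An explant keeps all cell types of the tissue. In such bulk RNA, fewer cells of a type and less RNA per cell cannot be told apart.

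Fibrillar collagens form the load-bearing fibres of the uterine wall, and small leucine-rich proteoglycans such as decorin and lumican bind to these fibres and regulate their spacing and growth. Matricellular proteins are secreted into the matrix without building it: they bind cell surface receptors, growth factors and collagen and change how cells adhere and respond. In the pregnant uterus the matrix is remodelled as the wall grows, and fibroblasts and smooth muscle cells both contribute to it.

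By the dye fields of the labels, Cy5 marked the treated RNA of arrays 1 and 3, and Cy3 that of arrays 2 and 4. The labelling protocol's text names Cy5 for treated RNA with no swap. Directions here follow the dye fields, and the authors' deposited ratios had the same signs for bright probes (slope 1.00 on each array after these signs were applied). Over the 22286 tested probes, the ratios of pairs of arrays correlated between -0.31 (arrays 2 and 3) and 0.25 (arrays 2 and 4). Between 46.1% and 51.0% of spots were well above background in Cy3 and between 54.9% and 63.1% in Cy5, and no spot was saturated. Slide 1, scan 1 held arrays 1 to 3, and array 4 came from slide 2, scan 2.

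None of the 8 matrix genes differed detectably between treated and control RNA. Of the 31 probes, 0 had a limma adjusted p under 0.05, as had 0 of all 22286 probes (0%), and the smallest adjusted p was 0.859 in both sets. At an unadjusted p under 0.05, limma counted 2 of the 31 probes, 1 of THBS1 and 1 of ASPN, both higher in treated RNA, against 1270 of all probes (5.70%), 3.77% higher and 1.92% lower. The ASPN probe entered the test through treated RNA alone (well above background on 3 treated and 2 control arrays), so its count as higher is no support for a direction. With 1 probe per gene, the brightest, the median log2 change of the 8 genes was -0.15, beside 0.00 for all tested probes. The 2 genes above 0 were THBS1 and ASPN, and the 6 below 0 were TNC, SPARC, DCN, LUM, SFRP4 and COL1A2. For these genes the median half-width of the 95% interval was 0.38 (log2), beside 0.39 for all tested probes. Without array 3 the median of the 8 genes was 0.01, and without array 2 it was -0.06.

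**Figure D1:**
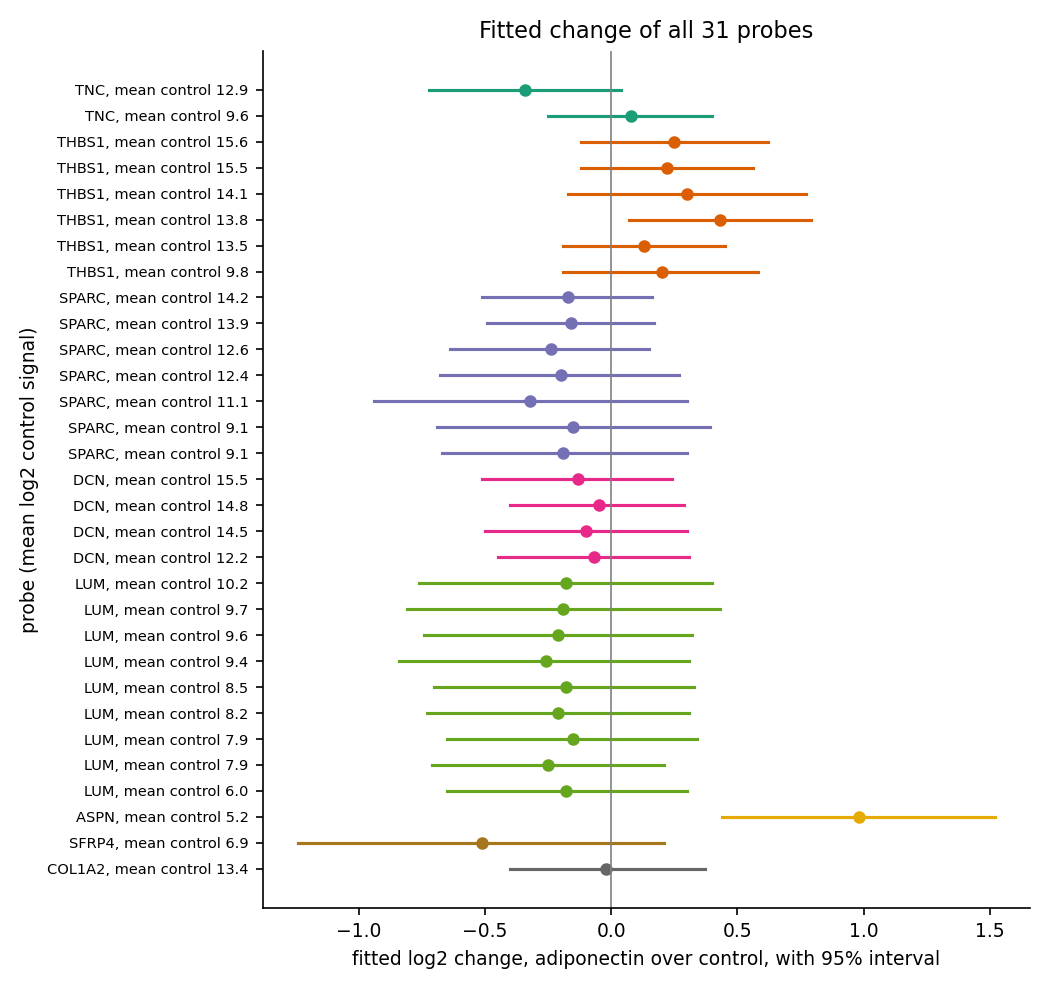
Fitted log2 change of each of the 31 probes (points) with its 95% interval (lines). Probes are grouped by gene, ordered by mean log2 signal over both RNAs and labelled with the mean log2 control signal. All 6 THBS1 probes lie above 0 and all SPARC, DCN and LUM probes below 0, and the interval of 1 THBS1 probe leaves out 0. The ASPN interval does too, but that probe was tested only through its treated RNA.

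TNC, tenascin-C, a large hexameric glycoprotein induced in remodelling tissue, differed more between arrays than between conditions. The control log2 signal of its brighter probe was 11.26, 13.51, 12.97 and 13.74 on arrays 1 to 4. In treated RNA it was 10.92, 12.92, 13.20 and 13.08. Array 1 was the lowest in both RNAs, and the ranges of the conditions overlapped. The second probe was also lowest on array 1, with 8.36 in control and 8.46 in treated RNA against at least 9.61 elsewhere. After each array's median over tested probes was subtracted, the brighter probe's control level was 2.69 on array 1 and 4.58 to 5.47 elsewhere.

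The treated over control log2 ratio of that TNC probe was -0.34, -0.59, 0.23 and -0.66 on arrays 1 to 4. Array 3 alone was above 0. The fitted log2 change was -0.34 ± 0.15 (SE, n = 4 arrays), with a 95% interval from -0.72 to 0.04 and a limma adjusted p of 0.859. The second TNC probe stood at 0.09, -0.02, 0.26 and -0.02, a fitted change of 0.08 ± 0.13, so the probes of this gene differed in sign. Averaged over both probes the change was -0.13. For the brighter probe it was -0.20 without array 1 and -0.48 without array 3.

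THBS1, thrombospondin-1, an adhesive trimer that binds CD36, CD47 and integrins and can activate latent TGF-beta, was the gene with several probes whose fitted changes were all above 0. Its 6 probes ranged from 0.13 to 0.43, with a median of 0.23. The brightest had control log2 signals of 15.40, 16.04, 15.73 and 15.38 and treated signals of 15.62, 15.98, 16.20 and 15.75. Treated RNA was higher on arrays 1, 3 and 4 and about level on array 2, and the conditions overlapped. Its ratios were 0.22, -0.05, 0.47 and 0.37, a fitted change of 0.25 ± 0.15, a 1.19-fold higher signal, with an interval from -0.12 to 0.62 (limma adjusted p = 0.865).

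The THBS1 probe with the largest change, of mean control log2 signal 13.79, had ratios of 0.35, 0.52, 0.65 and 0.21 and a fitted change of 0.43 ± 0.14. Its interval, from 0.07 to 0.79, leaves out 0, but over all probes it did not pass (limma adjusted p = 0.859). A probe with ratios of 0.15, 0.09, 0.19 and 0.10 had the smallest, 0.13 ± 0.13. These 2 probes were the THBS1 probes above 0 on all 4 arrays; of all tested probes, 6.31% were. On array 3 all 6 probes were above 0, from 0.19 to 0.82. On array 2 they split, 3 above and 3 below 0, from -0.11 to 0.52. The brightest probe's change was 0.15 without array 4 and 0.36 without array 2, and 0.40 with normexp and loess in place of the scanner's ratio.

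SPARC, osteonectin, binds collagen and calcium and is abundant where matrix is laid down. All 7 probes had fitted changes below 0, from -0.32 to -0.15 with a median of -0.19. The brightest gave control log2 signals of 14.47, 13.98, 14.11 and 14.21 and treated signals of 14.28, 13.67, 14.02 and 14.12. Treated RNA was lower on every array, by little. The ratios of -0.19, -0.32, -0.09 and -0.09 gave a fitted change of -0.17 ± 0.13, with an interval from -0.51 to 0.16 (limma adjusted p = 0.884). It was -0.11 without array 2.

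The SPARC probes did not give the same picture of array 3. The 2 brightest, with mean control log2 signals of 14.19 and 13.95, were below 0 on all 4 arrays, which held for 6.17% of all tested probes. The other 5, with mean signals between 9.06 and 12.57, were above 0 on array 3, from 0.18 to 0.55. On arrays 1 and 2 all 7 were below 0, from -0.67 to -0.13 and from -0.99 to -0.31. The spread of a probe's ratios over the arrays was 0.11 and 0.10 (SD, n = 4) for the 2 brightest and between 0.34 and 0.65 for the others, with the probe of mean signal 11.09 the widest. All 7 probes had their lowest ratio on array 2 but differed in how far the ratios moved.

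**Figure D2:**
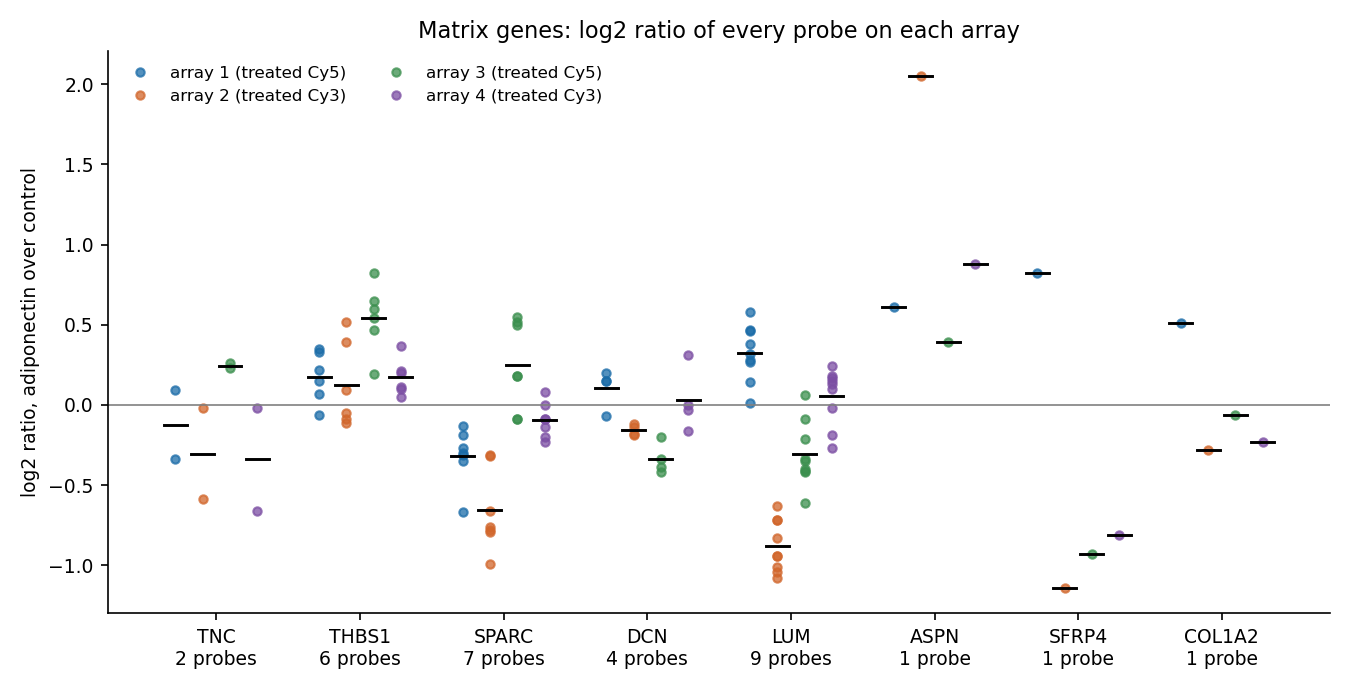
Log2 ratio of adiponectin-treated over control RNA for every probe (points) on each of the 4 arrays (colours), with the mean over a gene's probes on an array as a black line. For LUM the points of an array stay together while the arrays lie apart, array 2 lowest from -1.08 to -0.63 and array 1 highest from 0.01 to 0.58. The -1.08 and the 0.58 come from the dimmest LUM probe.

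DCN, decorin, coats collagen fibrils and binds TGF-beta. Of the genes with several probes, its median probe change, -0.09, was nearest to 0. Its brightest probe had control log2 signals of 15.12, 15.76, 15.67 and 15.45 and treated signals of 15.27, 15.63, 15.28 and 15.28. Treated RNA was higher on array 1 and lower on the others. The ratios were 0.15, -0.12, -0.39 and -0.16, a fitted change of -0.13 ± 0.15, with an interval from -0.51 to 0.24 (limma adjusted p = 0.914). The 4 probes had changes between -0.13 and -0.05, and on arrays 2 and 3 all 4 were below 0. Without array 1 the brightest probe stood at -0.27, and without array 3 at 0.00.

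LUM, lumican, which limits the diameter of collagen fibrils, had ratios that its 9 probes gave alike. On array 1 all 9 were above 0, from 0.01 to 0.58. On array 2 all 9 were below 0, from -1.08 to -0.63. Array 3 had 8 of 9 below 0, with a median of -0.35, and array 4 had 6 of 9 above 0, with a median of 0.13. The dimmest probe, of mean control log2 signal 5.99, gave the 0.58 of array 1 and the -1.08 of array 2. On array 3 it was the 1 above 0, at 0.06. It was well above background on 3 arrays in each RNA. The scanner's own error of its log2 ratio was between 0.31 and 0.39. The spread between the 9 probes on an array was 0.18 (SD), and the spread of the probe mean between arrays was 0.52 (SD, n = 4).

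The brightest LUM probe had control log2 signals of 10.04, 10.17, 10.45 and 10.14, a range of 0.41, and treated signals of 10.51, 9.23, 10.11 and 10.24. The treated RNA of array 2 was the lowest of the 8 signals and that of array 1 the highest. The ratios were 0.47, -0.94, -0.34 and 0.10. The fitted change was -0.18 ± 0.23, with an interval from -0.76 to 0.40 (limma adjusted p = 0.923), so the arrays differed by more than the mean moved from 0. All 9 probes had changes below 0, from -0.26 to -0.15, but they share the same 4 arrays. The sign of the brightest turned to 0.08 without array 2 and to 0.02 without array 3, and the change was -0.38 without array 1 and -0.44 without array 4.

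ASPN, asporin, a relative of decorin that binds collagen and TGF-beta, had a weak signal, near background on several arrays. Its 1 probe was well above background on 2 arrays in control RNA and on 3 in treated RNA, and in neither RNA on array 2. It met the 3-array filter through treated RNA alone. Control log2 signals were 6.74, 2.89, 5.52 and 5.82 on arrays 1 to 4, and treated signals were 7.36, 4.94, 5.91 and 6.70. Treated RNA was higher on all 4 arrays. The ratios were 0.61, 2.05, 0.39 and 0.88, and the largest comes from the array on which neither RNA was above background. There the scanner's own error of the log2 ratio was 0.91, against 0.24, 0.41 and 0.32 on arrays 1, 3 and 4.

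The fitted change of ASPN was 0.98 ± 0.22, with an interval from 0.44 to 1.52 (limma unadjusted p = 0.00458 and adjusted p = 0.859). These values describe a probe that was not above background in control RNA on 2 arrays, and they give no sound size for the change. Without a filter on dim probes the limma unadjusted p was 0.0447, and a stricter filter left the probe out, with a median of -0.17 over the other 7 genes. The change was 0.69 without array 2. With normexp and loess it was 0.23 (limma adjusted p = 0.96), and for no other of the 8 genes did that setting move the change as far. Both settings use the same dim spots, so the positive sign under both is no support for a direction. The cause of the difference in size was not tested. The named genes whose 4 ratios lay closest to those of ASPN, of 2118 compared, were RND3, RSAD2 and TBXAS1, with root mean square differences of 0.46, 0.48 and 0.48 on the log2 scale. Each had its highest ratio on array 2: 1.31 for RND3, 1.16 for RSAD2 and 1.24 for TBXAS1. They were picked for closeness to ASPN, whose own largest ratio is on array 2. That shared maximum follows from the choice and is no support for the ASPN value.

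**Figure D3:**
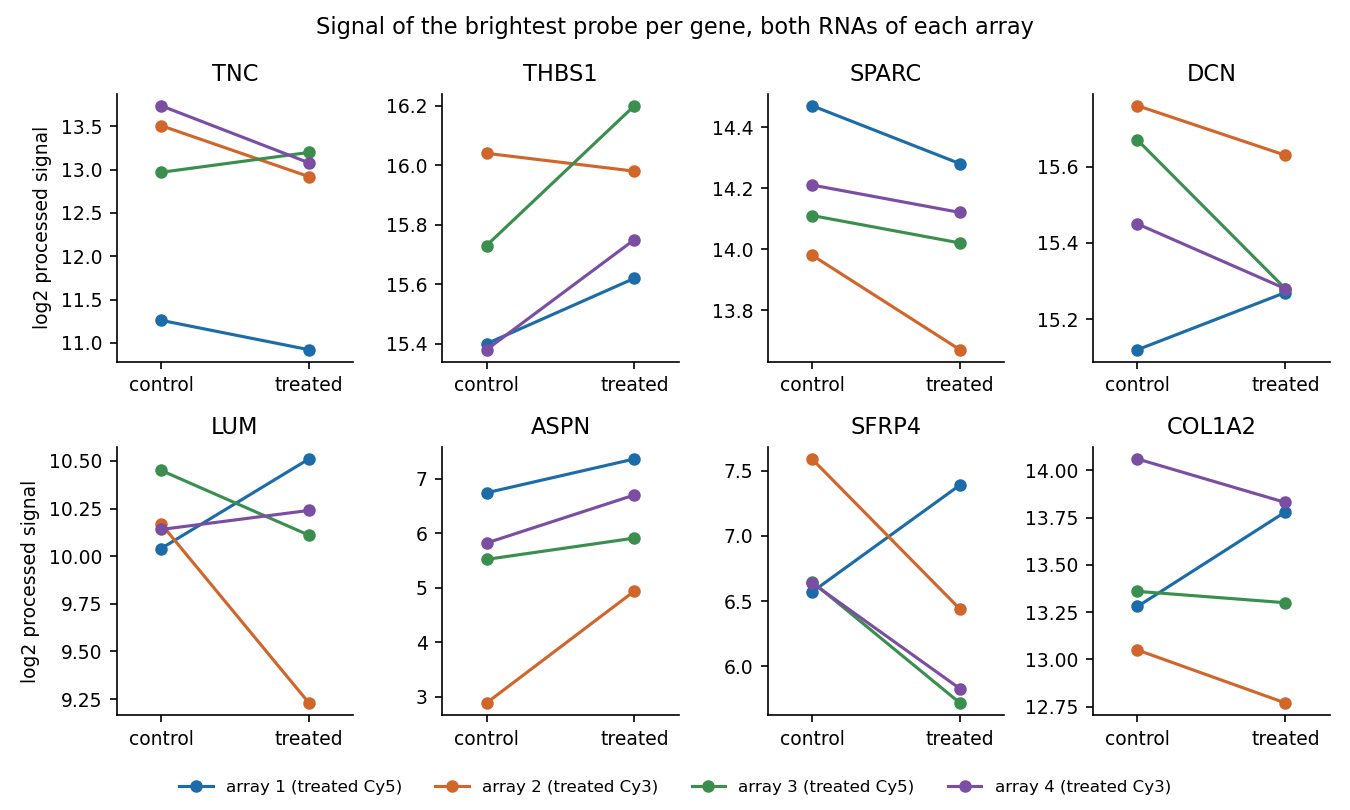
Log2 processed signal of the brightest probe of each gene in control and treated RNA, with the RNAs of an array joined by a line; each panel has its own vertical scale. TNC is lowest on array 1 in both RNAs, ASPN is higher in treated RNA on all 4 arrays, and SFRP4 is higher on array 1 alone. The ASPN probe was tested only through its treated RNA.

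SFRP4, secreted frizzled-related protein 4, binds Wnt ligands outside the cell and is expressed in uterine stroma. Its 1 probe was well above background in both RNAs on every array. Control log2 signals were 6.57, 7.59, 6.65 and 6.64, and treated signals were 7.39, 6.44, 5.72 and 5.83. Treated RNA was lower on arrays 2, 3 and 4 and higher on array 1. The ratios were 0.82, -1.14, -0.93 and -0.81, with scanner errors between 0.23 and 0.29. The fitted change was -0.51 ± 0.29, with an interval from -1.24 to 0.21 (limma adjusted p = 0.862). It was -0.95 without array 1 (limma adjusted p = 0.293) and -0.08 without array 3, and -0.30 with normexp and loess. Omitting 1 array thus moved the value severalfold.

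COL1A2, the alpha 2 chain of type I collagen, the main fibre-forming collagen, was steady in the mean. Control log2 signals were 13.28, 13.05, 13.36 and 14.06, and treated signals were 13.78, 12.77, 13.30 and 13.83. Only array 1 had the treated RNA higher. The ratios were 0.51, -0.28, -0.06 and -0.23, a fitted change of -0.02 ± 0.15, with an interval from -0.40 to 0.37 (limma adjusted p = 0.990). That interval leaves room for changes of up to 0.40 on the log2 scale. The change was 0.13 without array 3 and -0.16 without array 1.

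Array 1 stood above 0 for 6 of the 8 genes and array 2 below 0 for 7 of 8, with 1 probe per gene. The medians of the 8 genes were 0.35, -0.30, -0.08 and -0.12 on arrays 1 to 4, while those of all tested probes lay between -0.02 and 0.01. Of the arrays with treated RNA in Cy5, array 1 had a median above 0 and array 3 one below. The fitted dye offset of the 8 genes had a median of 0.17, beside 0.01 for all tested probes. For SPARC, DCN and LUM the mean over a gene's probes varied more between arrays than the probes varied on 1 array: 0.38 against 0.21 for SPARC, 0.20 against 0.13 for DCN and 0.52 against 0.18 for LUM (SD). For THBS1 the spreads were 0.19 and 0.20, and for TNC 0.27 and 0.34.

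**Figure D4:**
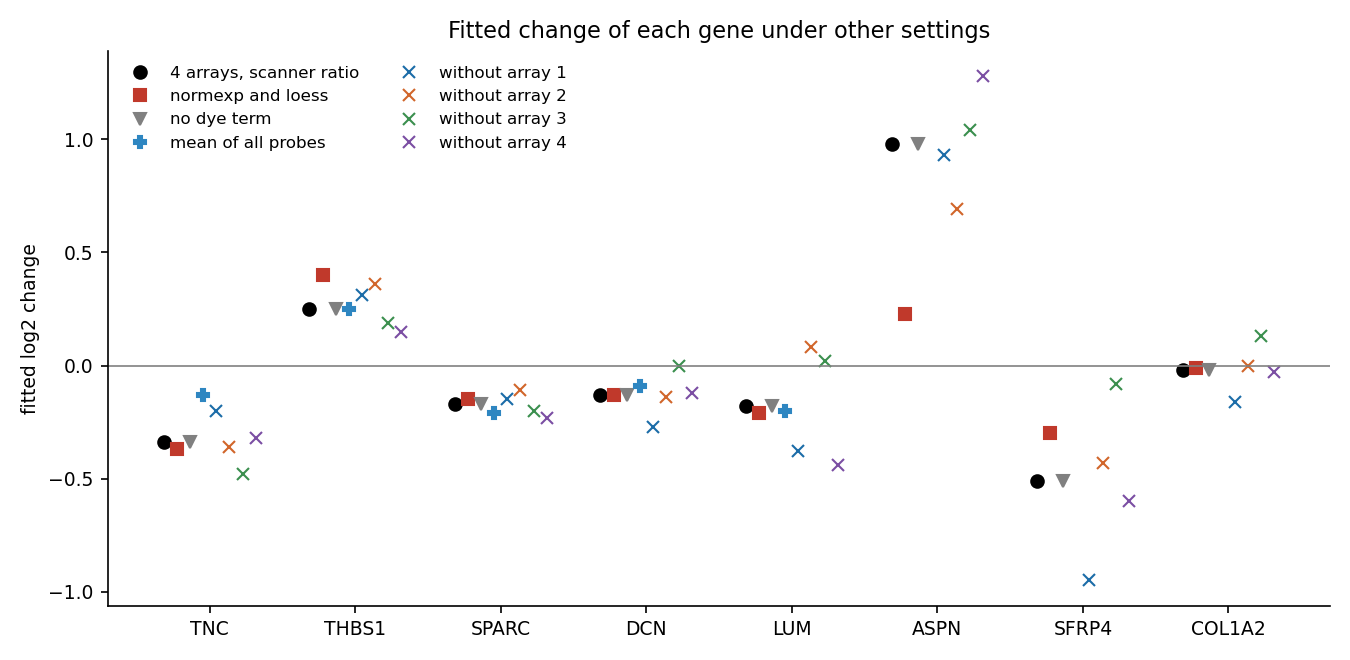
Fitted log2 change of the brightest probe of each gene with the scanner's ratio on 4 arrays (black circles) and under other settings, with each array left out in turn as crosses. ASPN falls from 0.98 to 0.23 with normexp and loess, SFRP4 ranges from -0.95 to -0.08 between array omissions, and LUM from -0.44 to 0.08.

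Other genes of matrix assembly gave no call either: across 7 lists, limma called 0 of their tested genes. It called 0 of all 22286 tested probes (0%), so this is no result about the lists. Among matricellular and related glycoproteins, 5 of 8 tested genes were above 0, with a median of 0.11. POSTN, periostin, which helps collagen cross-linking, had ratios of 0.05, 1.33, -0.85 and 0.68 and a change of 0.30 ± 0.21. TNXB, tenascin-X, a paralogue of TNC that binds collagen fibrils, stood at -0.30 ± 0.15, with ratios of -0.25, -0.32, -0.66 and 0.04. Of the collagen chains, 3 were tested, with a median of -0.13. COL5A2, a chain of type V collagen, which is built into type I fibrils, stood at 0.15. Its 4 tested probes ranged from -0.19 to 0.15 and thus differed in sign. COL5A3 stood at -0.28 ± 0.13.

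Collagen folding and cross-linking genes had a median of -0.08 over 4 tested genes, 1 of them above 0. LOX, the lysyl oxidase that cross-links collagen and elastin, stood at 0.34 ± 0.20, and SERPINH1, the collagen chaperone, at -0.15 ± 0.16. The 2 tested probes of SERPINH1 stood at -0.15 and 0.11 and thus differed in sign. The 2 other tested proteoglycans were VCAN, versican, at -0.05 and SDC4, a cell surface syndecan, at -0.04. Among the elastic fibre and basement membrane genes, 2 of 3 were above 0, with a median of 0.10. FBN1, fibrillin-1, the microfibril scaffold, had 3 probes, of which 1 was tested. That probe was below 0 on all 4 arrays, as were 6.17% of all tested probes. Its ratios were -0.62, -0.70, -0.21 and -0.15, with a change of -0.42 ± 0.16 (limma unadjusted p = 0.0465, adjusted p = 0.859). MFAP2, a microfibril-associated protein, stood at 0.22 ± 0.16.

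The receptors through which cells bind these proteins had a median of 0.16, with 6 of 8 tested genes above 0. ITGA2, the alpha 2 subunit of a collagen-binding integrin, stood at 0.53 ± 0.19, with ratios of 0.94, 0.49, 0.05 and 0.64 (limma unadjusted p = 0.0313, adjusted p = 0.859). ITGAV, the alpha v subunit of integrins that bind fibronectin, was below 0 on all 4 arrays, as were 6.17% of all tested probes. The ITGAV ratios were -0.50, -0.08, -0.54 and -0.28, with a change of -0.35 ± 0.13 (limma unadjusted p = 0.0405, adjusted p = 0.859). Its 5 tested probes ranged from -0.35 to -0.04. Of the Wnt inhibitors and pathway genes, 2 of 6 were above 0, with a median of -0.08. LEF1, a transcription factor of the Wnt pathway, stood at -0.46 ± 0.21 and DKK2, a secreted Wnt modulator, at -0.40 ± 0.26.

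The tissue label was set against markers of the cell types that an explant can hold. All 8 smooth muscle markers with a probe were well above background in control RNA on every array, among them DES and ACTA2. The log2 of their summed signal lay between 18.11 and 19.16 in control and 18.33 and 18.98 in treated RNA. Of 5 other fibroblast markers with a probe, 3 were well above background on every array and 1, PI16, on none, and C1S and C3 were the brightest. The 4 tested ones were all below 0, with a median of -0.13. The log2 of their summed signal lay between 12.79 and 13.69 in control and 12.88 and 13.45 in treated RNA.

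Cell type markers moved between arrays by as much as the matrix genes or more. The smooth muscle median was -0.69, -0.12, 0.72 and -0.20 on arrays 1 to 4. The median of 10 macrophage and monocyte markers, with AIF1 and C1QB the brightest, was 0.51, -0.26, 2.16 and 0.63. The median of 7 epithelium markers, with ACP5 and EPCAM the brightest, was -0.09, 1.24, -0.95 and 0.10. The fibroblast median was -0.45, 0.15, -0.08 and 0.27, which is below 0 on array 1, where 6 of the 8 matrix genes were above 0. Over the 4 arrays the fitted medians were -0.02 for smooth muscle, 0.70 for macrophages, 0.01 for epithelium and 0.14 for endothelium, with PECAM1 and CDH5 the brightest of 5. Pericyte, lymphocyte, neutrophil and mast cell, and mesothelium lists had 2, 3, 4 and 1 tested genes, with medians of 0.53, 0.44, -0.06 and 0.12, and erythrocyte markers had none. Of the 11 lymphocyte markers with a probe, 7 were not well above background in control RNA on any array. Of these, IL7R, was tested through treated RNA alone and is among the 3 behind the lymphocyte median. The part of these shifts in the ratios of the matrix genes was not tested.

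**Figure D5:**
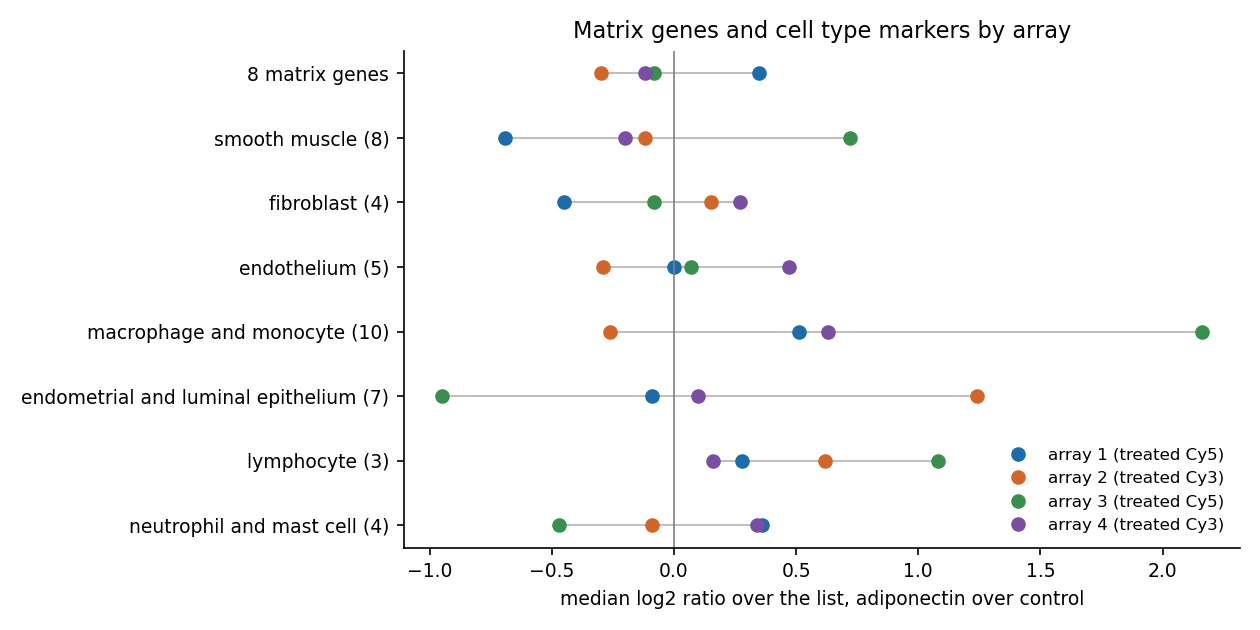
Median log2 ratio of adiponectin-treated over control RNA on each array (colours) for the 8 matrix genes and for marker lists of at least 3 tested genes, with the number of tested genes in parentheses and a grey line over the range. The matrix medians run from -0.30 to 0.35, the smooth muscle medians from -0.69 to 0.72 and the macrophage medians from -0.26 to 2.16.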

How the data were processed

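The deposited scanner files were made with Agilent Feature Extraction 10.7.3.1, per the file headers. Per the file headers, it subtracted background from each channel's intensity and normalised the dyes to give the processed intensity, and spot and background intensities are deposited as scanned. The deposited log10 ratio of Cy5 over Cy3 and its log10 error were computed by the scanner software from the processed signals, per the file headers. The authors' deposited series table holds log2 ratios. No genome build is named, so no coordinates are given. Ratios were turned to log2 of treated over control. Spots marked as outliers were left out and spots of a probe averaged. A probe entered the fit if 3 or more arrays were well above background in either condition and had a value, which left 22286. limma 3.58.1 in R 4.3.3 (lmFit, eBayes, two-sided) fitted a treatment and a dye coefficient, with Benjamini-Hochberg adjustment over all tested probes and a threshold of 0.05. SE and intervals leave out the spread that the dye coefficient takes up, and single-array ratios still hold a probe's dye offset. Signals of different probes were not compared as levels.

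Symbols came from RefSeq accessions through a table of assembly Sscrofa11.1. Of 7125 RefSeq probes, 6700 received a symbol. The brightest probe stood for a gene. Named are the member genes, the 2 genes of each pathway list with the smallest unadjusted p, the 2 brightest of each marker list, and the 3 genes nearest in ratios to the member with the smallest p. Members and lists were chosen with earlier results of these data known. Alternatives were normexp (offset 50) with loess, median centring, no dye term, the deposited table, no or a stricter filter, outlier spots kept, treated RNA in Cy5 throughout, and each array left out.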

Additional observations from a re-analysis of the deposited data

Results flagged for a closer look

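The 4 array values of each of the 31 probes were examined for 1 array far from the other 3, once for the ratio and once for the control level, 62 sets in all. In 2 sets this was so, where chance gives about 3.1. Both belong to the probe of SFRP4. Its log2 ratio was 0.82 on array 1, while arrays 2 to 4 gave -1.14 to -0.81. Its control log2 level was 7.59 on array 2, while the other arrays gave 6.57 to 6.65.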

How the results depend on the processing

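Of 100 values of the 8 genes under other settings, 0 passed (smallest limma adjusted p = 0.293) and 89 kept their sign. With treated RNA assumed in Cy5 on all arrays, the median of the 8 genes was 0.17 and 7 genes changed sign: TNC to 0.28, SPARC to 0.03, DCN to 0.01, LUM to 0.24, ASPN to -0.48, SFRP4 to 0.46 and COL1A2 to 0.24. THBS1 kept its sign, at 0.09. The dye orientations are balanced, so this setting returns each gene's dye offset from the fit with both coefficients. These 7 sign changes thus cannot tell treatment from dye. They are among the values above that did not keep their sign. Leaving out 1 array turned LUM (range -0.44 to 0.08, turned by array 2, and by array 3 to 0.02) and COL1A2 (-0.16 to 0.13, turned by array 3). DCN ranged from -0.27 to 0.00, the latter without array 3. The count above takes that 0.00 as a changed sign and the 0.00 of COL1A2 without array 2 as a kept one. To the digits given, neither has a sign. These omissions moved the median of the 8 genes between -0.18 and 0.01. In these fits 1 array stands alone in its dye orientation and weighs as much as the other 2 together. Over all probes, the omissions gave between 0 and 12 higher calls, the 12 without array 3, and 0 lower calls; 0 of the 31 probes were among them. All other settings gave 0 calls. At an unadjusted p under 0.05, limma gave 841 higher and 429 lower probes. It gave 1077 and 644 without array 1, 1307 and 1090 without array 3, and 429 and 265 without array 4. With no filter on dim probes it gave 1647 and 1527. Higher probes outnumbered lower ones under every setting, but by how much is not stable. The settings share the same 4 arrays, so this is no support for a direction. Array 4 is alone on slide 2, so slide as a block equals its omission. Each ratio already pairs the RNAs of an array. The number of arrays limits the precision, and for ASPN the signal over background.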

Other observations

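Some relatives of these genes, picked after their values were seen, moved further between arrays than the members did. SPARCL1, a SPARC relative of vessel and muscle walls, had log2 ratios of -0.90, 1.00, 1.23 and -0.29 on arrays 1 to 4 and a fitted change of 0.26 ± 0.39. MGP, matrix Gla protein, an inhibitor of calcification, had ratios of -1.30, -0.29, 1.67 and -0.11 and a change of -0.01 ± 0.46. P4HA1, a prolyl hydroxylase subunit needed for stable collagen, had ratios of 0.83, 0.28 and -0.19 on arrays 1, 2 and 4 and its lowest, -2.0, on array 3, and a change of -0.27 ± 0.44, with all 7 of its probes below 0, between -0.46 and -0.23. None passed (limma adjusted p between 0.932 and 0.998).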
